A study of Mus musculus with 30 samples.

Results

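The genes described here are 46 listed mouse genes of meiosis, the synaptonemal complex and the piRNA pathway, examined in prefrontal cortex of mice heterozygous for Adnp (HT) and of wild-type (WT) mice. Of the 46, 32 were rows of the deposited table of 18240 genes, and 29 of these had a mean normalized count of at least 10 over the 30 libraries and were tested among 16824 genes. Syce1, Piwil1 and Tex14 were in the table below that mean, and the other 14 (Msh4, Piwil4, Sycp1, Smc1b, Syce3, Tex12, Mael, Mov10l1, Hormad1, Hormad2, Meioc, Meiob, Stra8 and Asz1) were not analysed here. The members were selected on gene function with the HT against WT difference in their normalized counts already in view, so that difference is given for its members as a description. Where a member is said to be called in it, the word is a label for passing an adjusted p of 0.05 in limma across all genes, and nothing is supported with it. The members nearest the minimum were Msh5 at 10.9 and Sycp3 at 11.2 just inside it, and Syce1 at 8.38, Piwil1 at 7.18 and Tex14 at 6.84 just outside.

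Bulk RNA was sequenced from C57BL/6J mice at postnatal day 40, with every library carrying the same batch label. WT mice given vehicle supplied 4 female and 4 male libraries, HT mice given vehicle 4 female and 3 male, HT mice given fluoxetine (a serotonin reuptake inhibitor) 4 female and 4 male, and HT mice given lithium 3 female and 4 male. There was no WT group on either drug, the sources used here do not give the form of the Adnp allele or the doses, and the labels number the replicates without saying that each is a separate mouse. P-values therefore measure the spread between these libraries. HT and WT below are the labels. The normalized count assigned to Adnp alone went against them, at 1886 to 2491 in HT and 1703 to 2228 in WT libraries. The sum of Adnp and Gm20716 followed them, at 3404 to 3887 in every HT library and 4226 to 4433 in every WT library. That separation came from Gm20716, which alone was at 1049 to 1850 in HT and 2167 to 2622 in WT libraries. Reads per library ran from 23771758 to 34307061.

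Meiosis pairs homologous chromosomes along a protein axis of meiotic cohesin and synaptonemal complex, makes programmed DNA breaks and repairs some of them as crossovers. The piRNA pathway loads small RNAs into PIWI proteins, largely in germ granules built with tudor domain proteins, and silences transposons in the germ line. Both sets of genes are known mainly from testis and fetal ovary and are repressed in most somatic cells. ADNP is a zinc finger and homeobox protein that forms the ChAHP complex with CHD4 and HP1 proteins.

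In HT vehicle cortex 5 of the 29 tested members were higher than in WT and the rest were not called: Rec8, Rnf17, Sycp2, Cntd1 and Henmt1. Their mean normalized counts were 1.55 to 3.38 times the WT means, and none of the 29 was called lower. Of all genes tested, 0.624% carried the same label in that direction and 0.107% in the other. The same comparison was in view when the genes were listed, so nothing is read from that count. Over the 29 members the median log2 difference was 0.11 and 19 were above 0, beside a median of -0.001 and 49.3% above 0 over all genes tested. The other 24 members lay between -0.39 and 0.72 with a median of 0.04, and 15 of them were within 0.25 of 0. In bulk tissue, a change in the number of cells of a type and a change in RNA per cell cannot be told apart.

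Rec8, the meiotic kleisin subunit that closes the cohesin ring, was the member with the highest fold. Its normalized counts in WT were 53.8, 70.7, 36.5 and 98.9 in females and 79.8, 26.6, 107.9 and 68.0 in males. In HT vehicle they were 350.1, 153, 187 and 241 in females and 235, 200.1 and 236 in males. Every HT vehicle library was above every WT library. The means were 67.8 ± 28.3 (SD, n = 8) and 228.9 ± 62.2 (SD, n = 7), 3.38-fold apart, with a fitted log2 difference of 1.83 (SE 0.25). Per length (RPKM over exons), the level of Rec8 went from 0.796 ± 0.334 in WT to 2.73 ± 0.789 in HT vehicle, beside 21.7 ± 0.940 in WT for Rad21, its mitotic counterpart. Stag3, the meiotic STAG subunit that partners REC8, had normalized counts of 50.9 ± 11.98 (SD, n = 8) in WT and 38.2 ± 9.19 (SD, n = 7) in HT vehicle, and its groups overlapped. Its log2 difference of -0.39 (SE 0.17) was the lowest of the 29 members.

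The stretches upstream of Rec8 and Sycp2 are printed because these genes, with Rnf17, separated HT from WT in every library, and that of Ddx4 because it did not. They come from RefSeq (GRCm38.p6), read 5′ to 3′ towards the gene, and hold the bases before the annotated start that no GENCODE exon covers. They are 121 bases at chr14:55617916-55618036 (plus strand) for Rec8, 223 bases at chr2:178407686-178407908 (minus strand) for Sycp2 and 85 bases at chr13:112652476-112652560 (minus strand) for Ddx4. Capitals mark CG pairs, the sites of DNA methylation.
Rec8: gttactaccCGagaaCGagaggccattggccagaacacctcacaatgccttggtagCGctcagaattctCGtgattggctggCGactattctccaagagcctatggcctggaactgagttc
Sycp2: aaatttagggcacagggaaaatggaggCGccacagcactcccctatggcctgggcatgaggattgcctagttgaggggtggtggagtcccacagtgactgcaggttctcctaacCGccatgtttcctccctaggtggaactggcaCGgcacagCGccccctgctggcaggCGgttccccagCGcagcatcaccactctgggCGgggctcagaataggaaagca
Ddx4: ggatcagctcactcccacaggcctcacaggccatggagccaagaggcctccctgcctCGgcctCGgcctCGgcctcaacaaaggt
The stretch of Rec8 holds 5 CG pairs, that of Sycp2 7 and that of Ddx4 3. Over the whole window of 300 bases around the start, the ratio of observed to expected CG pairs was 0.716 in Rec8, 0.363 in Sycp2 and 0.978 in Ddx4. Such windows were at hand for 24 of the 29 tested members, as 32 promoters with a median ratio of 0.724, beside 0.716 over 15575 promoters of tested genes. Rnf17 was among the 5 genes with no entry. The E2F motif TTCCCGC was in 7 of the 32 member promoters (21.9%) and in 7.51% of promoters of tested genes. It was in 0 of the 4 promoters of called members. The E-box CACGTG was in 10 of the 32 (31.3%) and in 9.34% of promoters of tested genes, and of the called members Cntd1 held one. These shares count windows and not genes, and overlapping windows of Tdrd1 are each counted among the E-box matches. Both motifs were searched on both strands, and their letters do not coincide. A match here describes letters in a window and is no evidence of a bound factor.

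Sycp2 encodes a protein of the axial and lateral elements of the synaptonemal complex. In WT its normalized counts were 33.2, 26.4, 17.8 and 23.8 in females and 28.05, 32.55, 28.6 and 33.0 in males. In HT vehicle they were 51.6, 37.1, 79.1 and 84.95 in females and 96.3, 74.7 and 64.5 in males. The groups did not overlap, with the lowest HT value in female 2. The mean went from 27.9 ± 5.31 (SD, n = 8) to 69.7 ± 20.3 (SD, n = 7), a log2 difference of 1.28 (SE 0.15). Sycp3, its partner in the lateral element, had 7.06 ± 2.65 in WT and 11.9 ± 2.87 in HT vehicle, and 3 of 7 HT libraries were above the highest WT library. Its log2 difference was 0.72 (SE 0.27), on few reads and with 52.2% of its exonic bases shared with Chpt1 on the opposite strand. Syce2, a central element protein, had a log2 difference of 0.13 (SE 0.17). Syce1, also of the central element and below the minimum, had 4.78 ± 1.88 in WT and 9.30 ± 4.47 in HT vehicle, and 6 of 7 HT libraries were above the highest WT library.

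Of 10 recombination genes, Cntd1 alone was called. CNTD1 is a cyclin-like protein that acts in the maturation of crossovers. Its normalized counts in WT were 9.86, 16.04, 8.9 and 10.5 in females and 15.1, 8.57, 16.9 and 14.6 in males. In HT vehicle they were 20.85, 23.4, 22.02 and 24.7 in females and 19.96, 19.14 and 18.97 in males. The groups did not overlap, although the gap between the highest WT and the lowest HT library was small. The means were 12.6 ± 3.44 (SD, n = 8) and 21.3 ± 2.20 (SD, n = 7), a log2 difference of 0.74 (SE 0.16). As 70.2% of the exonic bases of Cntd1 lie opposite Becn1, whose mean normalized count is 3018, and no source states the strand setting of the counting, its assignment is uncertain. Becn1 itself had a log2 difference of -0.03 (SE 0.03). It was not called by DESeq2 or in a limma fit on the vehicle libraries alone.

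The 9 other recombination genes were not called. Spo11, the enzyme that makes meiotic DNA breaks, had 21.5 ± 4.28 (SD, n = 8) in WT and 21.2 ± 4.95 (SD, n = 7) in HT vehicle. Mei1 and Mei4, both needed for those breaks, had log2 differences of 0.27 (SE 0.10) and -0.34 (SE 0.28). Dmc1, the meiotic recombinase, had 0.30 (SE 0.17), and Hfm1, a helicase of crossover formation, 0.11 (SE 0.13). Prdm9, the histone methyltransferase that places recombination hotspots, was at 68.2 ± 8.89 in WT and 67.1 ± 10.3 in HT vehicle. Mlh3, which also serves in mismatch repair, was at 726 ± 24.0 and 732 ± 28.3. Msh5, just above the minimum, had the highest difference of the 9, at 0.47 (SE 0.30). It was 0.02 (SE 0.41) in females and 0.93 (SE 0.45) in males. Terb1 had -0.11 (SE 0.17). Over both sexes, HT and WT libraries overlapped in each of these genes.

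Among the 11 tested piRNA and germ granule genes, Rnf17 and Henmt1 were called. RNF17 is a tudor domain protein of germ cells. Its normalized counts in WT were 34.1, 38.7, 26.7 and 26.6 in females and 20.5, 36.0, 28.6 and 33.0 in males. In HT vehicle they were 90.0, 65.4, 79.1 and 80.65 in females and 74.0, 88.1 and 77.8 in males. The groups stood well apart, and the lowest HT value was above the highest WT value in both sexes. The mean went from 30.5 ± 5.96 (SD, n = 8) to 79.3 ± 8.33 (SD, n = 7), a log2 difference of 1.37 (SE 0.12), the smallest error of the 5. Rnf17 lies 0.777 Mb from Rec8 on chromosome 14.

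HENMT1 methylates the 3' ends of piRNAs. Its normalized counts in WT were 26.9, 24.5, 30.3 and 28.5 in females and 41.0, 28.3, 27.5 and 34.0 in males. In HT vehicle they were 40.6, 44.9, 39.0 and 68.8 in females and 49.3, 36.4 and 47.4 in males. The groups overlapped through WT male 1, and 4 of 7 HT libraries were above it. The means were 30.1 ± 5.18 (SD, n = 8) and 46.6 ± 10.8 (SD, n = 7), a log2 difference of 0.60 (SE 0.12). Without HT vehicle male 1 the log2 difference was 0.55 and Henmt1 was not called, nor was it in a limma fit on the vehicle libraries alone.

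The other piRNA genes were not called. Tdrd1, a tudor protein that binds PIWI proteins, was at 30.03 ± 9.12 in WT and 47.2 ± 11.8 in HT vehicle, a log2 difference of 0.66 (SE 0.20), and Tdrd9, a helicase of piRNA-directed silencing, had 0.38 (SE 0.17). Piwil2, a PIWI protein, was at 26.0 ± 3.44 and 26.3 ± 4.89. Tdrd7 and Tdrkh, tudor proteins with mean levels per length of 8.5 and 5.71 in WT against 0.168 for Rnf17, had log2 differences of 0.05 (SE 0.05) and -0.03 (SE 0.04). Tdrd5, Tdrd6 and Pld6, the last an outer mitochondrial membrane protein of piRNA biogenesis, had differences of -0.06, -0.03 and 0.21. Piwil1, below the minimum, was at 8.66 ± 2.76 in WT and 6.27 ± 1.07 in HT vehicle.

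**Figure D1:**
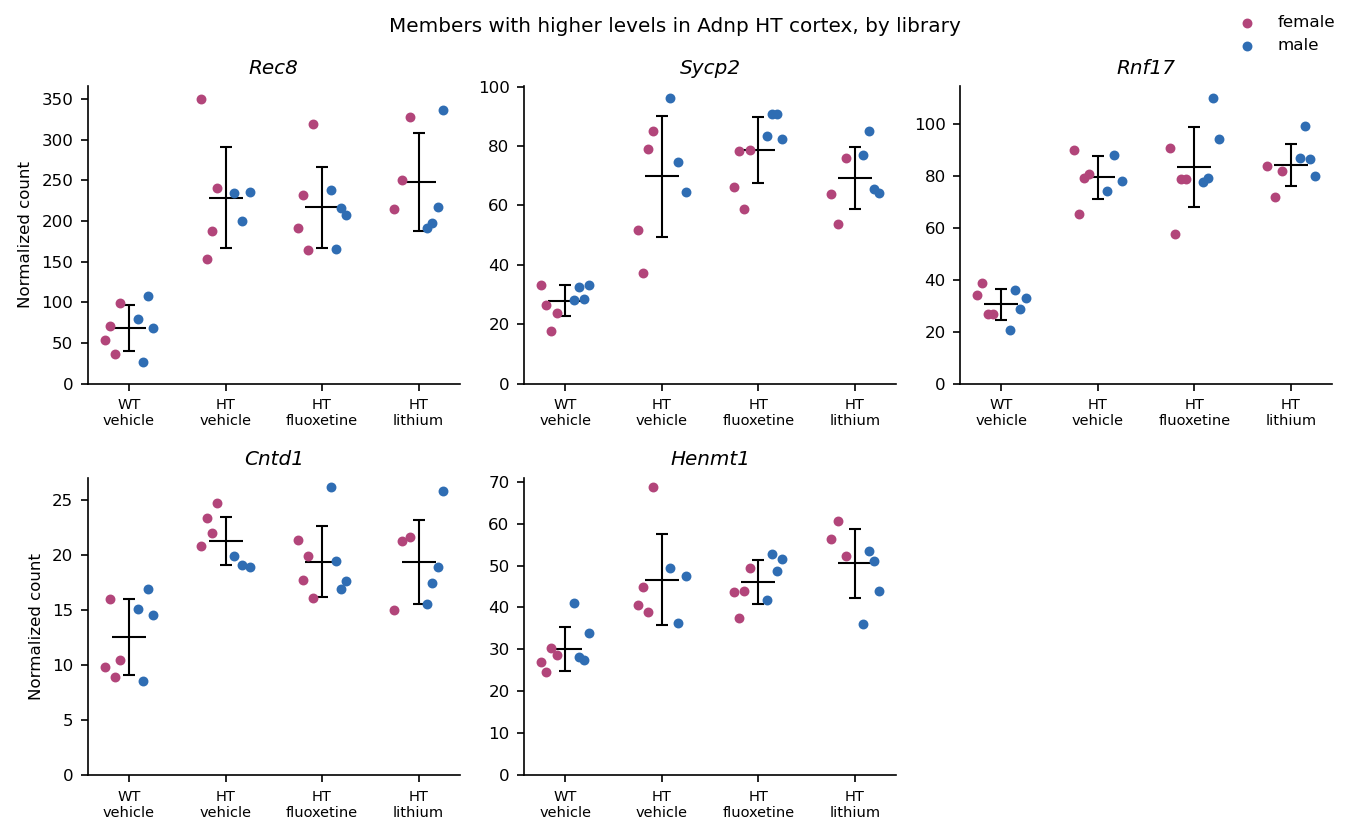
Normalized counts (vertical axes, from 0) of the 5 called members in each library, with the 4 groups along the horizontal axis, females and males in separate colours, and bars at the mean ± SD. In Rec8, Sycp2 and Rnf17 all 22 HT libraries lie above all 8 WT libraries. Cntd1 overlaps WT in the drug groups, and Henmt1 overlaps WT in the vehicle group as well.

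Genes that mark the germ line itself had overlapping values in both genotypes. Ddx4, an RNA helicase of germ granules, had normalized counts of 71.7, 87.7, 85.4 and 82.8 in WT females and 63.6, 94.7, 99.1 and 69.9 in HT vehicle females. The groups overlapped, and the means over both sexes were 84.5 ± 11.8 (SD, n = 8) and 82.1 ± 19.08 (SD, n = 7). Dazl, an RNA-binding protein of germ cells, was at 83.4 ± 8.98 and 86.4 ± 17.7. Brdt, a testis bromodomain protein, was at 270.5 ± 16.9 and 285.9 ± 26.7. Tex15, which takes part in piRNA-guided silencing, was at 37.4 ± 25.1 and 50.3 ± 43.7, and Tex14, an intercellular bridge protein below the minimum, at 6.41 ± 4.07 and 5.51 ± 1.43. None of the 10 spermatid markers examined (among them Prm1, Prm2, Tnp1 and Tnp2) and 2 of 8 oocyte markers were rows of the table. Of 6 spermatogonium markers 5 were rows with a mean of at least 10 (Dazl, Ddx4, Zbtb16, Gfra1 and Nanos2), the first pair being members. They summed to 2039 to 2403 normalized counts in WT and 1948 to 2485 in HT vehicle. Most of that sum was Zbtb16 (means 929.3 and 929.6) and Gfra1 (1112 and 1084), so it says little of Dazl, Ddx4 and Nanos2. Of 5 Sertoli and Leydig cell markers 3 were rows (Sox9, Amh and Star), with sums of 478.8 to 653.7 and 485 to 648.6. These were mostly Sox9, with means of 525 and 503. The 5 excitatory neuron markers, in contrast, summed to at least 114380 normalized counts in every library.

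**Figure D2:**
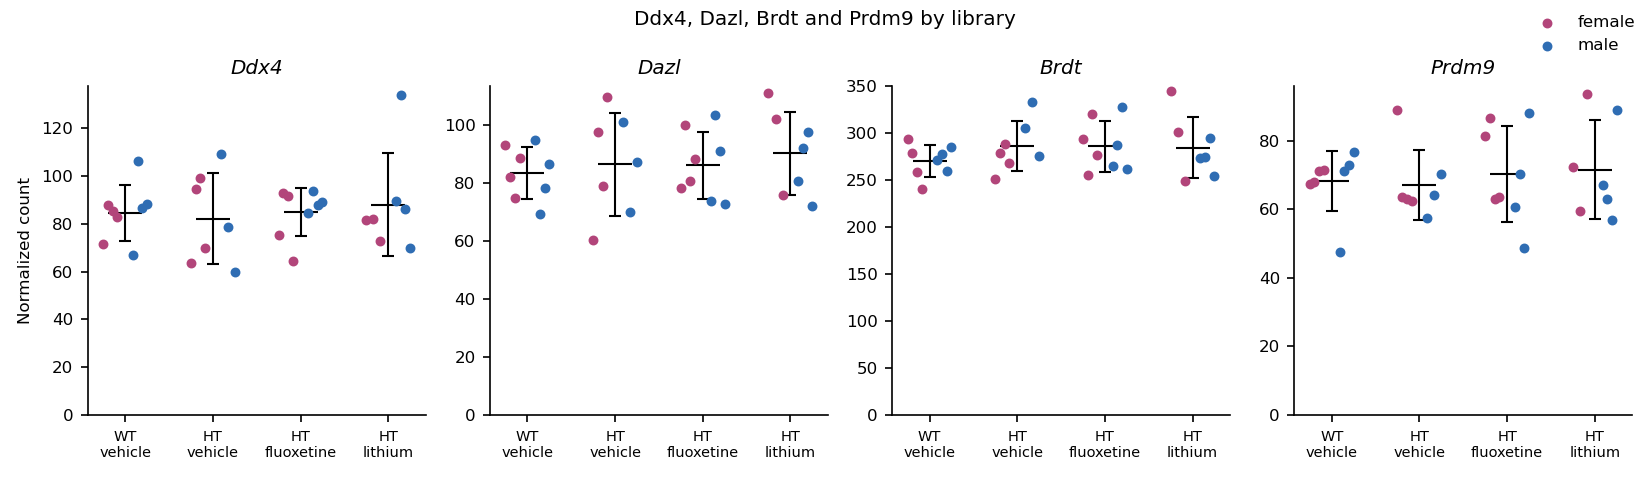
Normalized counts (vertical axes, from 0) of Ddx4, Dazl, Brdt and Prdm9 in each library of the 4 groups, with females and males in separate colours and bars at the mean ± SD. HT and WT libraries overlap in each gene.

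The 29 members together summed to 3936 ± 95.1 normalized counts in WT (n = 8) and 4303 ± 107 in HT vehicle (n = 7). The 5 called members went from 168.9 ± 30.2 to 445.9 ± 73.5, and the other 24 from 3767 ± 71.9 to 3857 ± 70.4. Most of the sum of the 24 came from Mlh3, Tdrd7 and Tdrkh, at means of 726, 977 and 1019 in WT. It therefore says little of the members with low counts. In number of members, 4 had every HT vehicle library above every WT library (Rec8, Sycp2, Rnf17 and Cntd1), as did 0.404% of all genes tested.

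The HT groups on either drug showed the same 5 members above WT, compared with the same 8 WT libraries. Rec8 was at 217 ± 49.5 (n = 8) on fluoxetine and 248 ± 60.8 (n = 7) on lithium, Sycp2 at 78.7 ± 11.2 and 69.3 ± 10.5, and Rnf17 at 83.2 ± 15.3 and 84.1 ± 8.23. In each of these 3 genes all 22 HT libraries were above all 8 WT libraries, as in 0.172% of genes tested. Cntd1 was at 19.4 ± 3.23 and 19.4 ± 3.84, and Henmt1 at 46.2 ± 5.27 and 50.5 ± 8.20. Cntd1 exceeded the highest WT library in 18 of 22 HT libraries and Henmt1 in 17 of 22. On fluoxetine 7 members were called against WT (1.24% of all genes higher), the further 2 being Tdrd1 at 0.75 (SE 0.19) and Mei1 at 0.39 (SE 0.10) on the log2 scale. That count was 4 without WT male 2 or without HT fluoxetine female 3. On lithium 5 were called (1.4% of all genes higher), with Tdrd1 at 0.65 (SE 0.20) and Mei1 at 0.32 (SE 0.10) not among them. Cntd1 lost its call in 7 of 16 fits with 1 library left out on fluoxetine and in 8 of 15 on lithium. DESeq2 did not call Cntd1 against WT on either drug. These comparisons share their WT libraries with the vehicle comparison, so they are no separate evidence.

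**Figure D3:**
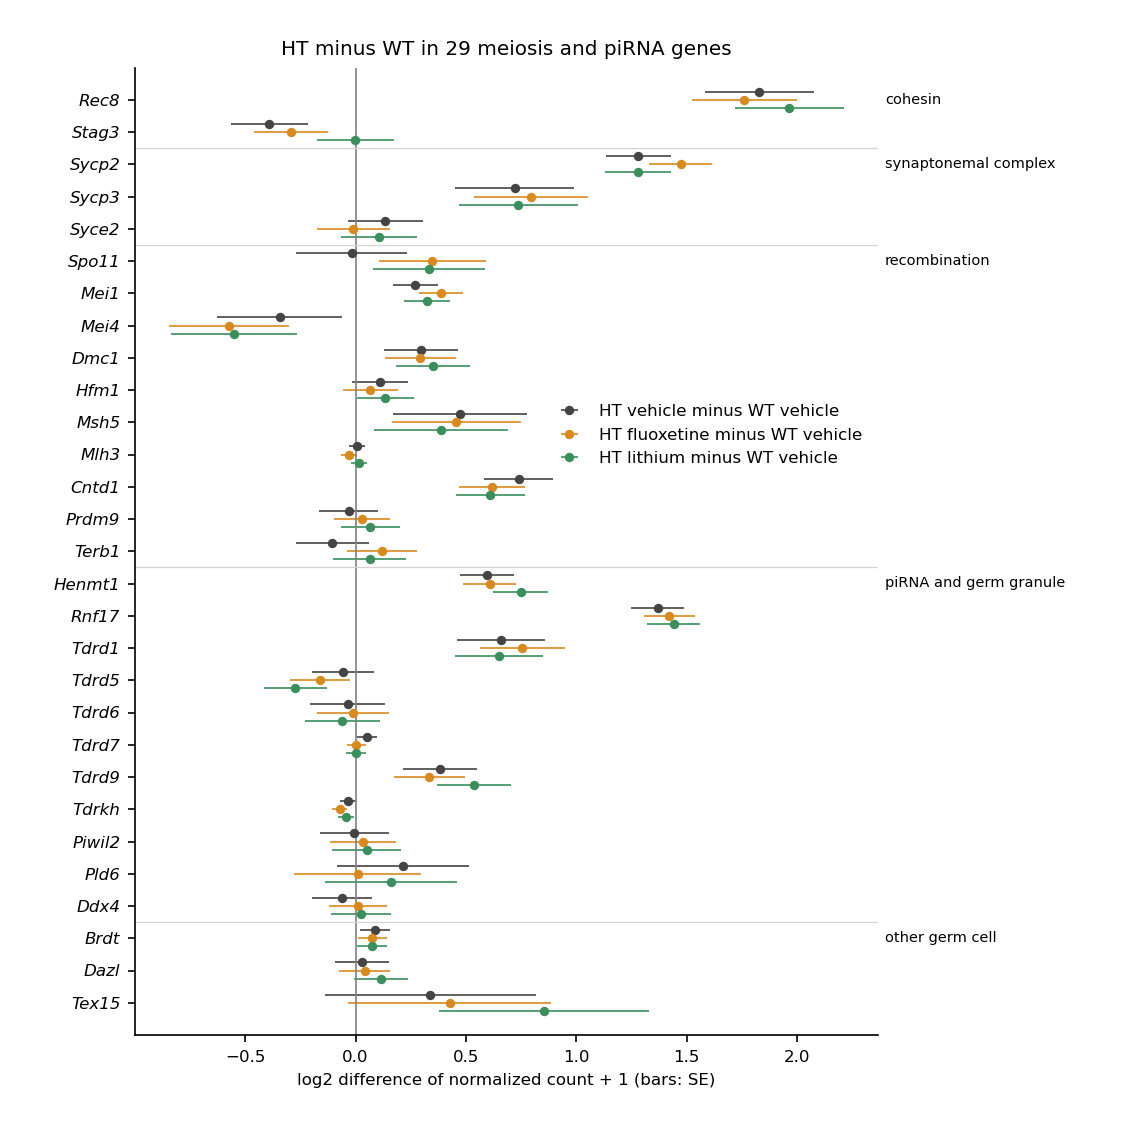
Log2 difference of normalized count + 1 (horizontal axis) between each HT group and WT vehicle for the 29 tested members, ordered by role along the vertical axis, with bars of 1 SE. Rec8, Sycp2 and Rnf17 lie above 1 in all 3 HT groups, and most other members lie near 0.

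Neither drug changed a member detectably against HT vehicle, a comparison that was not used to list the genes. Under fluoxetine 0 of 29 members passed an adjusted p of 0.05 in limma, 0 in edgeR and 0 in DESeq2, beside 0.0357% of all genes called in limma. At an unadjusted p under 0.05 there were 0 members, beside 2.63% of all genes. The 2 members with the smallest p were Spo11, from 21.2 ± 4.95 (SD, n = 7) to 28.7 ± 12.3 (SD, n = 8), and Terb1, a telomere attachment protein, from 31.8 ± 5.42 to 37.0 ± 3.99. Both had an adjusted p of 1. Under lithium 0 passed in each of limma, edgeR and DESeq2, beside 0.0892% of all genes called in limma. At an unadjusted p under 0.05 there was 1 member, beside 5.72% of all genes. That member was Stag3, which had normalized counts of 22.6 to 48.3 with a median of 40.0 on vehicle and 34.8 to 68.6 with a median of 46.6 on lithium. Its log2 difference was 0.39 (SE 0.18, adjusted p = 0.873 in limma). Tdrd5 had -0.21 (SE 0.15, adjusted p = 0.8795).

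For the members higher in HT, the drug differences had intervals that contain 0. In Rec8 the 95% interval on the log2 scale ran from -0.58 to 0.45 under fluoxetine and from -0.40 to 0.67 under lithium. In Sycp2 it ran from -0.12 to 0.50 and from -0.32 to 0.32, and in Rnf17 from -0.20 to 0.30 and from -0.19 to 0.33. None of these intervals reaches a fall as large as the HT against WT difference of the same gene. That difference shares the HT vehicle libraries and was in view when the genes were listed. In Cntd1 they ran from -0.44 to 0.20 and from -0.46 to 0.21, and in Henmt1 from -0.24 to 0.27 and from -0.11 to 0.42. Between the 2 drugs 0 members were called in limma, edgeR or DESeq2, beside 0% of all genes called in limma, and 0 had an unadjusted p under 0.05, beside 6.86% of all genes. Stag3 at -0.29 (SE 0.17, adjusted p = 0.801) and Sycp2 at 0.19 (SE 0.15, adjusted p = 0.849), fluoxetine minus lithium, had the smallest p.

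**Figure D4:**
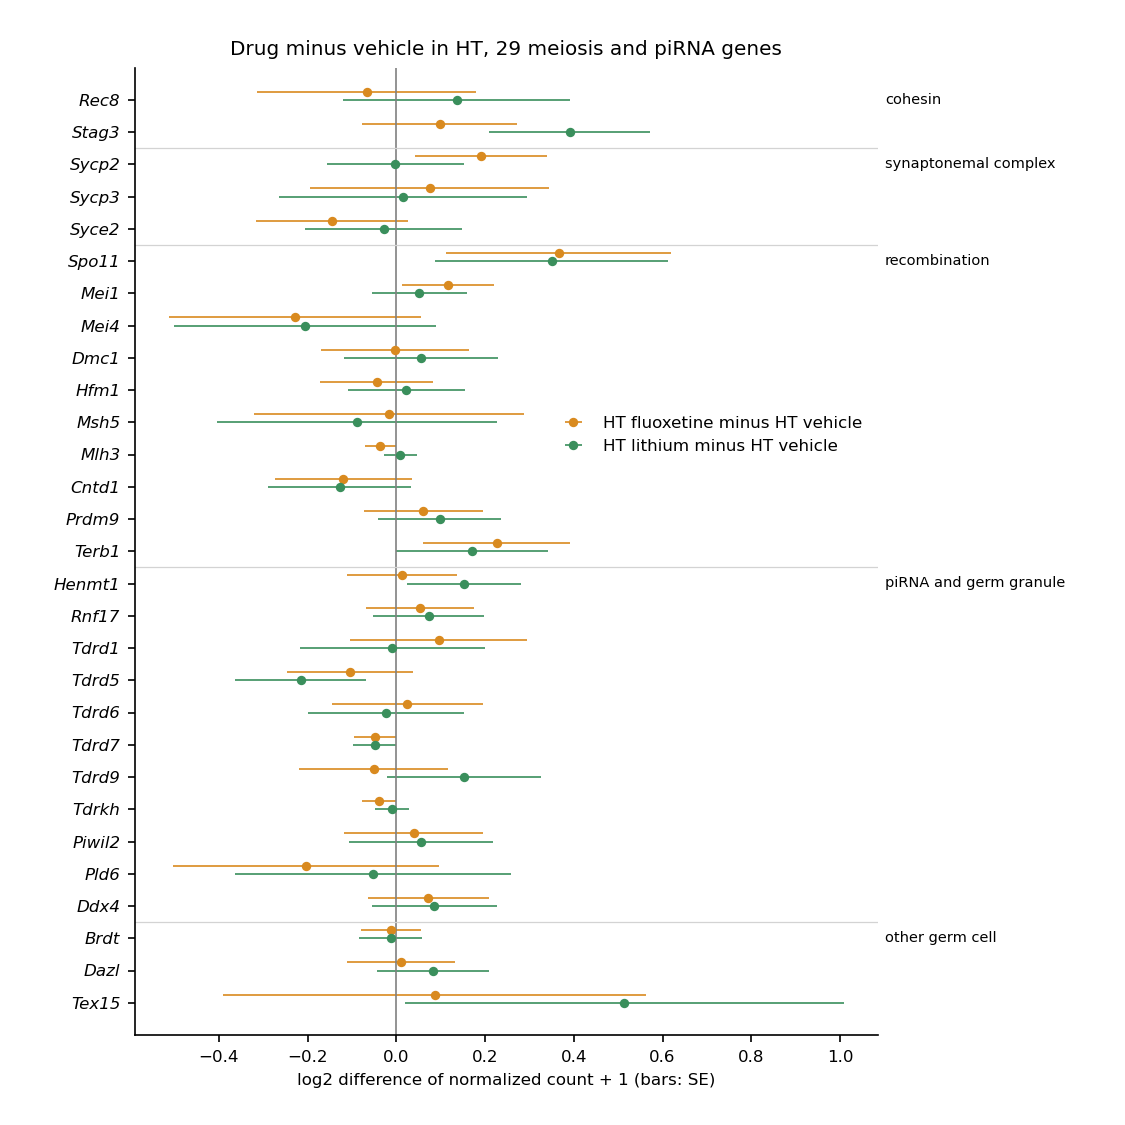
Log2 difference of normalized count + 1 (horizontal axis) between HT mice on fluoxetine or lithium and HT mice on vehicle, for the 29 tested members by role (vertical axis), with bars of 1 SE. Under fluoxetine 28 and under lithium 26 of the 29 lie within 0.25 of 0.

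Females and males showed the higher levels alike in direction. In females 5 members were called (0.238% of all genes higher) and in males Rec8, Sycp2 and Rnf17 (0.214%). These counts split the comparison in view when the genes were listed and are a description too. The female count was 3 with DESeq2, 3 with a replicate block (which ended the calls of Cntd1 and Henmt1), 1 with only those groups in the fit, 3 without WT female 1, WT female 4, HT female 2 or HT female 4 and 2 without WT female 3. The male count was 3 with the replicate block, 2 with only those groups in the fit and 1 without HT male 1. For Rec8 the log2 difference was 1.85 in females and 1.81 in males, for Sycp2 1.25 and 1.32, and for Rnf17 1.30 and 1.43. Cntd1 had 0.98 in females and 0.50 in males, and Henmt1 0.76 and 0.44. The difference between the sexes was tested directly and 0 members were called in limma, edgeR or DESeq2, beside 0% of all genes, and 0 had an unadjusted p under 0.05, beside 2.05% of all genes. For Cntd1 it was 0.48 (95% interval -0.16 to 1.12) and for Dmc1 0.52 (SE 0.33), each with an adjusted p of 1 in limma. Female minus male over all conditions called 0 members in the 3 tools, beside 0.214% of all genes called in limma. At an unadjusted p under 0.05 there were 3 members, beside 8.05% of all genes, a share near that of the members. Sycp2 was at 55.3 in females and 66.4 in males on average (n = 15 each), a log2 difference of -0.28 (SE 0.11, adjusted p = 0.418 in limma), and Mlh3 was at 741 and 708 (0.07, SE 0.03, adjusted p = 0.438).

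The drug effects did not pass a test of difference between the sexes either. For fluoxetine 0 members were called in limma, edgeR or DESeq2, with 3 at an unadjusted p under 0.05, beside 5.96% of all genes. For lithium 0 were called in the 3 tools, with 1 at an unadjusted p under 0.05, beside 10.01% of all genes. Limma called 0% of all genes in both. Tdrd9 in HT females had a mean of 26.7 ± 5.63 (SD, n = 4) on vehicle and 17.6 ± 5.99 (SD, n = 4) on fluoxetine. In males it had 20.5 ± 3.198 (SD, n = 3) and 29.7 ± 5.67 (SD, n = 4). The female effect minus the male effect was -1.11 (SE 0.34, adjusted p = 0.779 in limma). For Mei4 it was 1.502 (SE 0.57, adjusted p = 0.779) under fluoxetine and 1.23 (SE 0.59, adjusted p = 0.495) under lithium, on mean counts of 9.32 to 19.0 in the 6 HT groups. Brdt had 0.27 (SE 0.14, adjusted p = 0.495) under lithium.

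Libraries of one group differed from each other more in some members than reads alone give. The within-group coefficient of variation of Rec8 was 32.3% where counting error gives 7.31%, and that of Tex15 was 71.1% against 14.02%. For Sycp2 it was 19.8% against 12.8%, for Rnf17 15.8% against 12.1%, for Henmt1 16.5% against 15.3%, and for Cntd1 20.01% against 23.5%. Rec8 and Tex15 thus varied between libraries well beyond counting and Sycp2 less so, while the spread of Cntd1 was below its counting error.

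Rec8 and Tex15 moved with marker sums of other brain cells. Tex15 was highest in HT vehicle female 1 at 144.9 and HT lithium male 4 at 140.6, the libraries with the highest sums of 6 olfactory bulb and neuroblast markers, 12811 and 13428. In the other 28 libraries Tex15 was at most 101.8. Rec8 was highest in the same 2 libraries, at 350.1 and 337, and next in HT lithium female 3 at 328 and HT fluoxetine female 4 at 319. The sum of 5 inhibitory neuron markers (Gad1, Gad2, Slc32a1, Pvalb and Sst) was 28321, 29223, 23461 and 28585 in these 4 libraries. Over the 8 WT libraries it ran from 17312 to 24012 and over HT vehicle from 18723 to 28321. The highest inhibitory sums came with high olfactory bulb sums or high striatum marker sums (19552 in HT fluoxetine female 4). HT fluoxetine female 2 had an inhibitory sum of 27693, a striatum sum of 17429 and Rec8 at 232. From WT to HT vehicle, mean Gad1 (8598 to 9882), Gad2 and Slc32a1 were higher, and Pvalb (521 to 471) and Sst (4481 to 4254) lower. The part of striatum or olfactory bulb tissue in the inhibitory sum was not tested.

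Over the 22 HT libraries, log2 Rec8 and the log2 inhibitory sum had Pearson's r = 0.788 (permutation p = 2e-05, adjusted 0.00139) and Spearman's rho = 0.785 (permutation p = 3e-05, adjusted 0.00261). Without the 2 libraries farthest from the median sum, r was 0.718. Over the 8 WT libraries r was 0.94 (exact permutation p = 0.000744, adjusted 0.0863) and rho 0.905 (exact permutation p = 0.00456, adjusted 0.176), and r was 0.849 without the 2 farthest. For Tex15 and the olfactory bulb sum, HT libraries gave r = 0.912 (permutation p = 1e-05, the smallest that 100000 permutations give, adjusted 0.00116) and rho = 0.875 (permutation p = 1e-05, adjusted 0.00261), and r = 0.864 without the 2 farthest. WT libraries gave r = 0.956 (exact permutation p = 0.000273, adjusted 0.0863), rho = 0.905 (exact permutation p = 0.00456, adjusted 0.176) and r = 0.894 without the 2 farthest. All tests were two-sided, the pairs were singled out after their values were seen, and each genotype had 348 relations of 29 members with 12 marker lists. In HT 33 passed an adjusted Pearson p of 0.05, in 13 members, and in WT 0 passed. The HT libraries pool 3 treatments and both sexes.

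With the inhibitory neuron and olfactory bulb sums as covariates, an alternative chosen after seeing the data, the log2 difference of Rec8 between HT and WT vehicle was 1.63 and those of Sycp2, Rnf17, Cntd1 and Henmt1 were 1.27, 1.39, 0.68 and 0.59, beside 1.83, 1.28, 1.37, 0.74 and 0.60 without them. The part of these cell types in the difference was not tested.

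**Figure D5:**
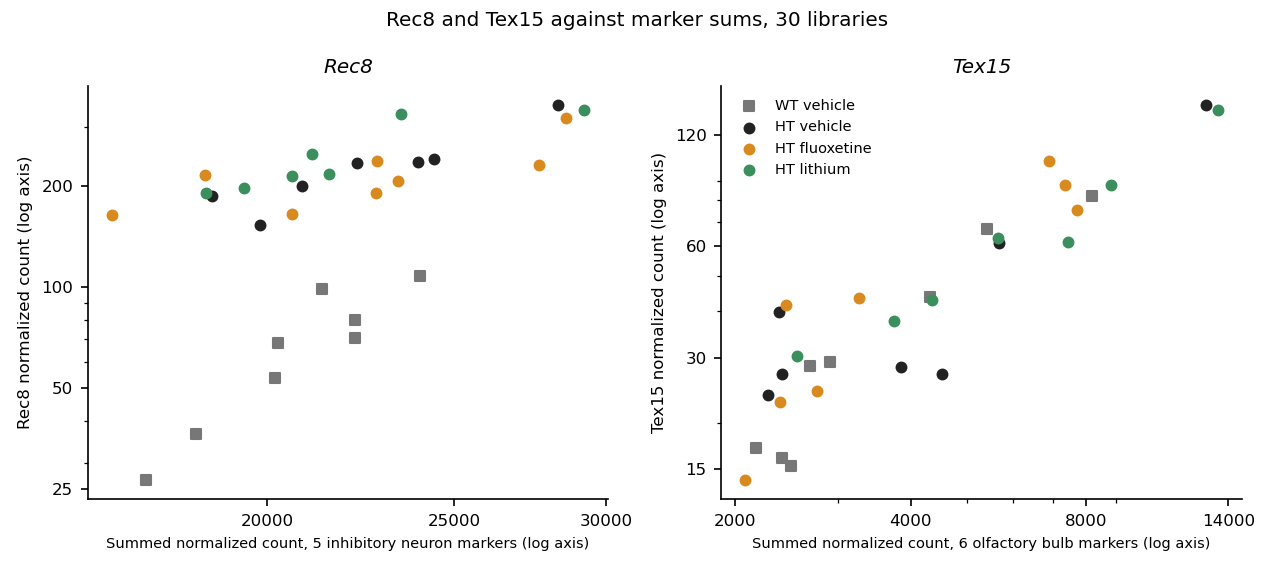
Rec8 against the sum of 5 inhibitory neuron markers, and Tex15 against the sum of 6 olfactory bulb and neuroblast markers, in normalized counts on log axes for 30 libraries (squares WT, circles HT, coloured by treatment). Rec8 rises with the sum within each genotype with HT above WT throughout, whereas the Tex15 points of both genotypes share a single band.

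Other genes of these pathways were taken from lists also written with earlier results known. Between HT and WT vehicle their counts are read beside the 0.624% of all genes called higher, the 0.107% called lower and the 6.60% at an unadjusted p under 0.05. Of 36 further meiosis genes 21 were in the table and 18 tested, and limma called 0 between HT and WT vehicle (1 at an unadjusted p under 0.05, 8 above 0, median -0.01). Rad21l, another meiotic kleisin, was at 11.9 ± 4.06 (SD, n = 8) in WT and 16.4 ± 2.56 (SD, n = 7) in HT vehicle, a log2 difference of 0.48 (SE 0.18, adjusted p = 0.446), and Ankrd31, which acts in DNA break formation, had 0.51 (SE 0.28, adjusted p = 0.863). In HT lithium against WT, Tcfl5, a germ cell transcription factor, was called lower (0.577% of all genes lower), from 22.6 ± 4.54 (SD, n = 8) to 11.1 ± 3.804 (SD, n = 7). Of 23 further piRNA genes 12 were in the table and 10 tested, with 0 called (0 at an unadjusted p under 0.05, range -0.09 to 0.07). Ago3, an Argonaute outside the PIWI clade, was at 1850 ± 159 and 1943 ± 145. With lists of this size, 0 or 1 called is near the share over all genes.

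All 25 listed mitotic and somatic counterparts of the members were tested, among them Rad21, Smc3, Stag2 and Ago2, and limma called 0 between HT and WT vehicle (1 at an unadjusted p under 0.05, range -0.10 to 0.12), a count near the share over all genes. Ddx3x, an X-linked RNA helicase among them, was called in females against males (0.214% of all genes called), at 8495 ± 226 and 7036 ± 328 (SD, n = 15 each), a log2 difference of 0.28 (SE 0.02, adjusted p = 1.718e-09 in limma). Of 36 genes known to repress or regulate germline genes, 2 were called higher, E2f2 and Adnp itself. E2f2, an E2F transcription factor, went from 29.5 ± 4.10 (SD, n = 8) to 76.5 ± 9 (SD, n = 7), a log2 difference of 1.36 (SE 0.09, adjusted p = 2.083e-10 in limma). Adnp had 0.26 (SE 0.05, adjusted p = 0.00996), on a count that is split with Gm20716. E2f2 was also called on fluoxetine at 76.8 ± 11.1 (SD, n = 8) and on lithium at 79.5 ± 5.97 (SD, n = 7) against the same WT libraries, and Adnp on fluoxetine. Kdm5c, an X-linked histone demethylase of that list, was called in females against males, at 2254 ± 132 and 1786 ± 82.4 (SD, n = 15 each). The list's median was 0.01.

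The genes around the 5 called members are given as a description. Within 500 kb of Rec8 (chr14:55618037-55625395, plus strand) 28 other genes were tested, with 0 called and a median log2 difference of 0.01. Around Rnf17 (chr14:56402581-56525032, plus strand) 8 were tested, around Sycp2 (chr2:178345293-178407685, minus strand) 7, around Henmt1 (chr3:108939873-108960774, plus strand) 15 and around Cntd1 (chr11:101279012-101296317, plus strand) 38, with 0 called in limma in each. At 0.624% of all genes called higher, 0 among so few neighbours is near the share over all genes. The neighbours' log2 differences lay between -0.21 and 0.40 for Rec8 and between -0.04 and 0.09 for Sycp2, which is 10.1 Mb from Adnp on chromosome 2. Positions are of GRCm38 from GENCODE M21, which also gives all members as protein-coding genes.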

How the data were processed

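Prefrontal cortex RNA of 30 libraries was examined. The GRCm38 build and Salmon 0.11.2, with R 3.6.0 and DESeq2 1.19.11, are named in the submitters' processing notes; strand setting and annotation release are not stated in the labels. What the authors deposited is a signal, gene counts that the authors divided by a size factor per library. Whole counts, called reads here, were recovered from the smallest steps. In every library 100% of values were within 0.01 of a whole number, and in 2 libraries the step was within 0.5% of 1. Whether these counts are rounded Salmon estimates was not tested. IDs were matched to GENCODE M21 symbols, which 18227 of 18240 rows had.

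The main test was limma 3.58.1 (R 4.3.3) on log2(normalized count + 1) of 16824 genes (mean at least 10), with 8 groups of sex, genotype and treatment in 1 fit, Benjamini-Hochberg adjustment over all genes and 22 residual degrees of freedom. Fold changes on that scale understate the change of low genes. On the recovered reads edgeR 4.0.16 called 123 genes between HT and WT vehicle and DESeq2 1.42.0 called 144, beside 123 in limma. On simulated data of 16824 genes for that comparison, 80% of changes of 1.5-fold and 98% of 2.5-fold were recovered. The changed genes were drawn at random from all tested genes, so recovery at the low counts of most members was not measured. Intervals use 22 degrees of freedom. Levels per length use recovered reads and exon lengths.

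The members and all lists were chosen with earlier results of these data known. The rule for named genes was every member called and the 5 first in the list with each vehicle library, other members by role, the 2 smallest p of each other comparison, and called genes of the further lists, at most 4 per direction, or else the 2 with the smallest p (given here for some comparisons only). Alternatives were other pseudocounts, filters, scalings, tools, groups in the fit, a replicate block and leaving out libraries. Replicate numbers in the labels name no shared litter or day. For part of the HT lithium female libraries the number in the library name differs from the title number, which was used here. Same-numbered vehicle males deviated together (correlations 0.17, 0.185 and 0.278) and same-numbered vehicle females did not (-0.345, -0.228, 0.15 and 0.0594). HT vehicle with HT fluoxetine females gave 0.413, -0.108, 0.392 and 0.446, and the other pairs of groups -0.43 to 0.0839. Only in vehicle males was every pair over 0.1.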

Additional observations from a re-analysis of the deposited data

How the results depend on the processing

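The HT against WT comparisons were in view when the genes were listed, so their values under alternatives are a description. Alternatives were compared for 51 main values, which are not all members in all comparisons. Of their log2 differences of single members under alternatives, 1172 kept their direction and their side of the threshold. A further 80 kept the direction and lost the threshold, and none turned in sign. Other differences, many of them near 0, were not followed in this way. The 5 members called between HT and WT vehicle became 3 with a mean of at least 50 and 3 with only the 2 vehicle genotypes in the fit. In females the 5 became 3 with a mean of at least 50, 3 with DESeq2, 1 with only those groups and 3 with the replicate block, and ran from 2 to 4 when 1 library was left out. They were 3 without WT female 1, 2 without WT female 3 and 3 without WT female 4, HT female 2 or HT female 4. In males the 3 ran from 1 to 3 and were 1 without HT male 1, and the replicate block left them at 3. The 7 members of HT fluoxetine against WT became 4 with a mean of at least 50 and 4 with only those groups, and ran from 4 to 7 when 1 library was left out, with 4 without WT male 2 and 4 without HT fluoxetine female 3. The 5 of HT lithium against WT became 4 with DESeq2, ran from 4 to 6 when 1 library was left out, and became 3 with a mean of at least 50. That filter tests fewer genes and removes Cntd1 and Henmt1; the cause of the other changes was not tested. With the replicate block HT fluoxetine against WT lost Tdrd1 (6 called) and HT lithium against WT lost Cntd1 (4 called). Marker sums as covariates also ended the call of Cntd1 in HT lithium against WT. Apart from the female count given above, the other counts did not move with the block. The difference of the summed members, 367 normalized counts, ran from 341 to 386 when 1 library was left out. Another scaling (TMM) moved the median of all genes by 0.00273. Members under about 20 normalized counts carry counting errors above 20% in a single library, which is not the error of a difference between groups. Between HT and WT vehicle, Sycp3 at 0.72 (SE 0.27) and Msh5 at 0.47 (SE 0.30) were not called, and Cntd1 at 0.74 (SE 0.16) was. The smallest difference detectable in such members was not measured.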

Other observations

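Other members moved with cell markers across the 22 HT libraries without a genotype call. Tdrd7, a tudor protein also present in somatic tissue, had r = 0.859 with the log2 sum of 5 striatum markers (permutation p = 1e-05, adjusted 0.00116; rho = 0.745, permutation p = 0.00013, adjusted 0.00646), and 0.8 without the 2 libraries farthest from the median. In the 8 WT libraries r was 0.871 (exact permutation p = 0.00461, adjusted 0.152). Mei1 had r = -0.76 with the oligodendrocyte sum in HT (permutation p = 7e-05, adjusted 0.00271; rho = -0.768, adjusted 0.00418), r = -0.778 without the 2 farthest, and r = -0.465 in WT (exact permutation p = 0.245, adjusted 0.727). These belong to the 348 relations per genotype given above and were picked after their values were seen.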
